A study of Mus musculus with 8 samples.

Results

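The apolipoprotein L (Apol) genes described here are 7 mouse genes, Apol6, Apol7c, Apol8, Apol9a, Apol9b, Apol10a and Apol10b. They were chosen by gene symbol among the 55536 genes counted, with earlier results of these data known. They were followed in 8 tumors of HCA-1, a mouse hepatocellular carcinoma line grown in the liver of male C3H mice, of which 4 received PFSUV-IMQ and 4 received saline. PFSUV-IMQ is imiquimod, an agonist of the endosomal RNA sensor TLR7, loaded into phospholipid-free small unilamellar vesicles. It was given intravenously as a single dose of 4 mg per kg on day 17 after implantation, and tumors of both groups were taken 3 h later for mRNA sequencing. The PFSUV-IMQ tumors carry replicate numbers 1, 2, 3 and 4 (group label IMQNP) and the saline tumors numbers 1, 3, 4 and 5 (group label Control). The study's methods name saline for the controls, which its text elsewhere calls untreated. The mice were 6 to 8 weeks old at implantation per the labels, and 4 to 6 weeks old when purchased per the methods. All animals carried the same implanted line, no engineered allele is named, and no source states whether each tumor came from its own animal, so p values measure the spread between these samples. Each sample is whole tumor tissue, in which fewer cells of a type and less RNA per cell cannot be told apart.

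Apolipoprotein L proteins share only a name with the plasma apolipoproteins. The founding human member, APOL1, circulates on high-density lipoprotein and kills trypanosomes, whereas most other members are intracellular proteins that associate with membranes and are described in autophagy, cell death and antiviral defence. Several members are known targets of interferon, which acts through transcription factors such as STAT2 and IRF9 on a DNA element called the interferon-stimulated response element (ISRE). Mouse Apol9a and Apol9b are close copies with a described antiviral role, human APOL6 has been described as a BH3-domain protein of cell death, and mouse Apol7c has been described in antigen cross-presentation by dendritic cells.

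The family has 15 genes in the count table. In the GENCODE M21 annotation of GRCm38, 13 of them lie on chromosome 15. Apol6 is separated by 331 kb from the next family gene, Apol7a, and the other 12 are packed into 369 kb. The 7 genes lie on chromosome 15 as Apol6 (77044729 to 77057106, plus strand), Apol9a (77403789 to 77411135, minus), Apol10a (77477047 to 77491069, plus), Apol7c (77524852 to 77533316, minus), Apol10b (77583819 to 77596125, minus), Apol9b (77729039 to 77736382, plus) and Apol8 (77747798 to 77757003, minus). All 7 are annotated as protein coding. In the map of the locus, all 4 tested genes on the plus strand were higher, and the minus strand held both genes that were higher and genes that were not.

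**Figure D1:**
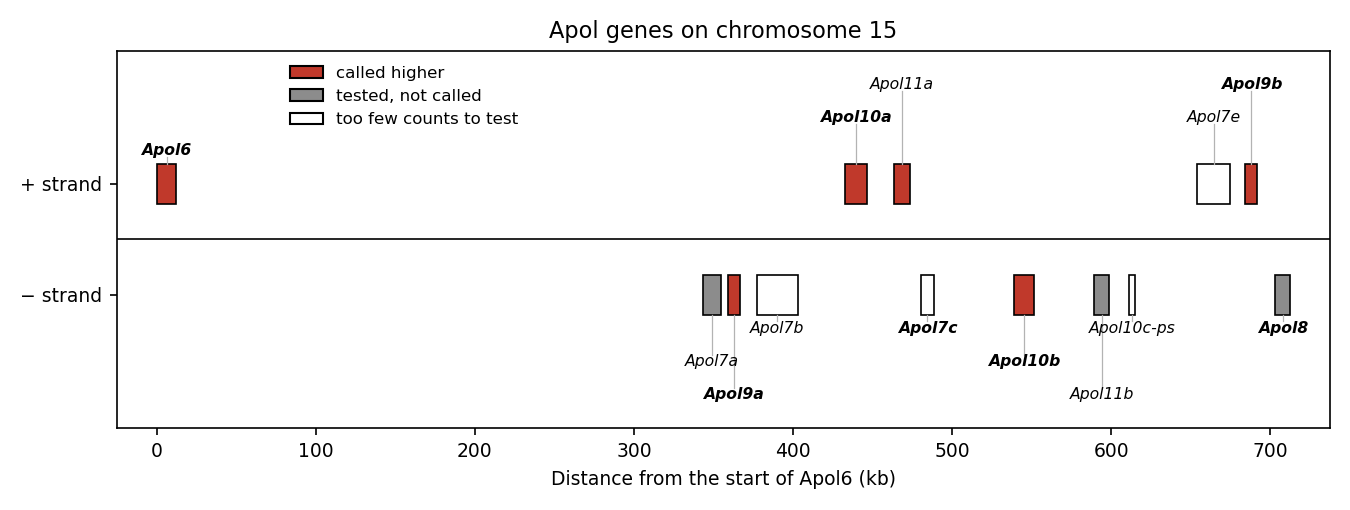
Apol genes on chromosome 15, drawn to scale as distance in kb from the start of Apol6, with the plus strand above and the minus strand below; the 7 genes described here are in bold. Filled red boxes are genes higher in the PFSUV-IMQ tumors (adjusted p under 0.05 and log2 fold change beyond 1), grey boxes were tested and not called, and open boxes had too few counts to be tested.

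RefSeq promoter windows on GRCm38.p6, from 250 bases before to 50 after each start site, were found for 12 of the 15 genes and 6 of the 7 members. They were searched on both strands for the ISRE core, which is GAAA, any 2 bases and GAAA again and occurs in 3.44% of all 32851 windows, and for the gamma-activated site (GAS), which is TTC, any 3 bases and GAA and occurs in 8.30%. The ISRE core was present in the windows of Apol9a, Apol9b, Apol10a, Apol10b and Apol7c, and of the non-members Apol11a, Apol11b and Apol7e. It was absent from those of Apol8, Apol7a, Apol7b and Apold1. The stretches around the matches in the 5 members are shown because they are the sequence feature that most of these genes share. Capitals mark the ISRE core, which in each case lies on the opposite strand and so reads TTTC, any pair of bases, TTTC. The stretches are chr15:77411124-77411179 (minus strand) for Apol9a, chr15:77728995-77729050 (plus) for Apol9b, chr15:77476956-77477030 (plus) for Apol10a, chr15:77596120-77596169 (minus) for Apol10b and chr15:77533330-77533410 (minus) for Apol7c.
Apol9a: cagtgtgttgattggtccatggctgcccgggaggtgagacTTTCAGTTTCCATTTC
Apol9b: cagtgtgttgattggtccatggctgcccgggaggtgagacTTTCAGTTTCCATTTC
Apol10a: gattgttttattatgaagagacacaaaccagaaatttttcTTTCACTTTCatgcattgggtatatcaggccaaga
Apol10b: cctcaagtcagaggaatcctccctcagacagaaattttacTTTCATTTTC
Apol7c: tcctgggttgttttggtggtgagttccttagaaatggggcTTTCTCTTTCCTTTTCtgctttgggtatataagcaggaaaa
The stretches of Apol9a and Apol9b have the same letters. In Apol9a, Apol9b and Apol7c, 2 overlapping matches form a capital run of 16 bases, and in Apol10a and Apol10b there is 1 match. The first base of the match lies 4 bases before the GENCODE start of Apol9a, Apol9b and Apol10b, 51 before that of Apol10a and 54 before that of Apol7c. Counted from the RefSeq starts of the windows, it lies 59 or 105 bases before those of Apol9a and 37 or 86 before those of Apol9b. The RefSeq distances are 4 bases for Apol10b, 51 for Apol10a and 55 for Apol7c, so the position in the Apol9 copies depends on the annotation. Of the members, only Apol10a has a GAS in its window, and it does not overlap the ISRE core. A match describes letters and not a bound site, and no binding was measured.

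Control libraries held 16883911 to 27687756 counts and PFSUV-IMQ libraries 17008151 to 18527613. A count of 3 then equals 0.108 to 0.178 CPM, the unit in which every library is scaled to one size, a limit that covers counting error only. Values per gene are CPM normalized by edgeR's TMM method. The test was edgeR's quasi-likelihood test over 15998 genes with Benjamini-Hochberg adjustment. A gene counts as called, higher or lower, where the adjusted p was under 0.05 and its fold change on the log2 scale exceeded 1 in size. Markers of hepatocytes were present in every tumor, with Alb at 10371 ± 8441 CPM in the Control and 9401 ± 8904 CPM in the PFSUV-IMQ tumors (SD, n = 4 each). The carcinoma markers Afp and Gpc3 were low, at most 140 and 39 counts per tumor. PFSUV-IMQ tumor 2 stood apart. Its TMM factor was 0.843 against 0.981 to 1.09 in the others, and its 8 hepatocyte markers summed to 31095 CPM against 7768 to 9803 in the other 3 of its group. Control tumor 4, at 30733 CPM, was the only Control tumor near that sum. Markers of neutrophils (149 against 36.5 to 47.1 CPM), NK cells (27.9 against 7.31 to 8.44 CPM) and B cells (20.8 against 2.45 to 4.30 CPM) were also highest in PFSUV-IMQ tumor 2. Within its group, so were those of T cells (147 against 60.1 to 88.4 CPM) and plasmacytoid dendritic cells (860 against 509 to 652 CPM). The same held for endothelial cells (164 against 108 to 144 CPM) and macrophages (784 against 410 to 748 CPM). For called members in which tumor 2 was far above the other 3, log2 fold changes are given with and without it. For Apol7c, which had too few counts for the main test, only a value with all tumors is given. The part of these differences between tumors in the results was not tested.

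Counts sufficed for a test in 6 of the 7 Apol genes, and 5 of these, Apol6, Apol9a, Apol9b, Apol10a and Apol10b, were higher in the PFSUV-IMQ tumors, against 2.26% of all tested genes. No member was lower, a call made for 0.200% of tested genes. The log2 fold changes of the 5 ranged from 2.18 to 4.21, against a median of -0.03 over all tested genes. In these 5 genes every PFSUV-IMQ tumor lay above every Control tumor, a separation seen in 6.00% of tested genes. Because the members were chosen with earlier results of these data known, the shares of all tested genes beside them serve as description only. Apol8 was tested and not called, and Apol7c had too few counts. Apol6, Apol9a, Apol9b and Apol10b passed the count filter in all 8 tumors, whereas Apol10a passed it in the 4 PFSUV-IMQ tumors and in no Control tumor, so its inclusion is not independent of its difference. Among the 362 higher genes ordered by log2 fold change, Apol10a ranked 30, Apol9a 128, Apol10b 132, Apol6 144 and Apol9b 183. Leaving out PFSUV-IMQ tumor 2 left all 5 calls in place. Leaving out a Control tumor did not, with 2 members called without Control 1, 3 without Control 5 and 4 without Control 3 or Control 4.

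**Figure D2:**
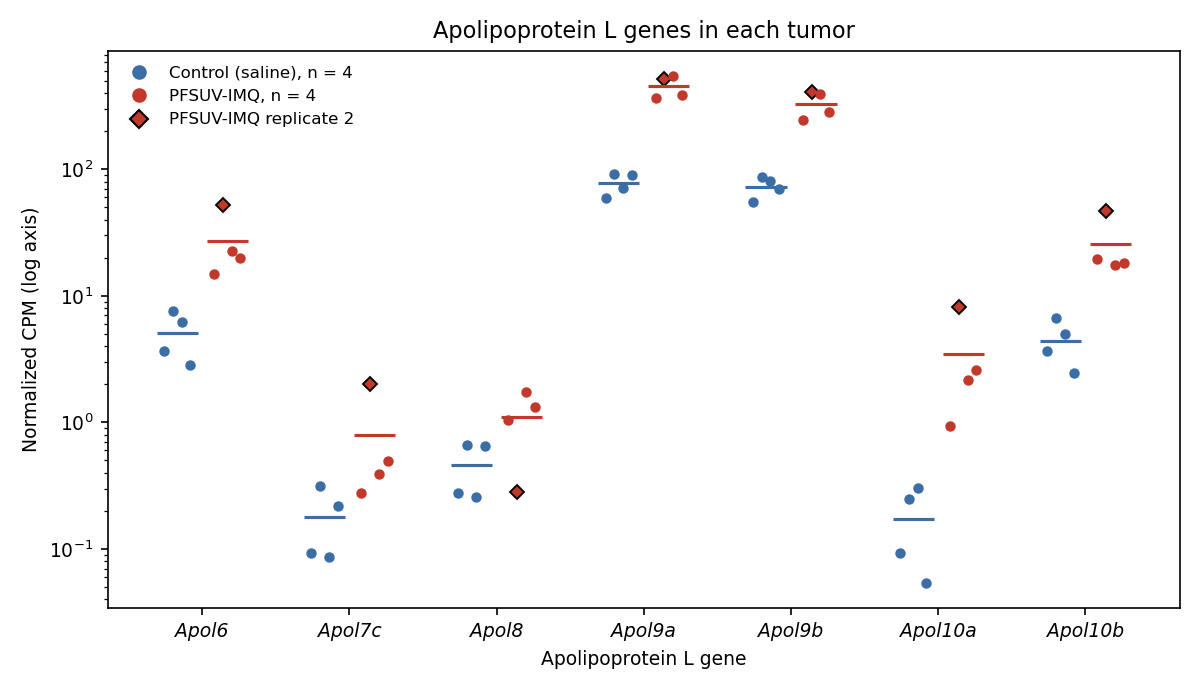
Normalized CPM (log axis) of the 7 Apol genes in each tumor, with Control in blue and PFSUV-IMQ in red; bars are group means of 4 tumors and the outlined diamond is PFSUV-IMQ tumor 2. The groups are apart for Apol6, Apol9a, Apol9b, Apol10a and Apol10b and overlap for Apol7c and Apol8, and PFSUV-IMQ tumor 2 is the highest point for Apol7c and the lowest of its group for Apol8.

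Apol9a and Apol9b, the antiviral copies, were by far the most abundant members. Apol9a was at 59.5, 91.7, 71.7 and 90.0 CPM in Control tumors 1, 3, 4 and 5 and at 367, 521, 545 and 387 CPM in PFSUV-IMQ tumors 1 to 4. The lowest PFSUV-IMQ tumor was thus well above the highest Control tumor. The log2 fold change was 2.54 (standard error 0.22), or 5.82-fold, with an adjusted p of 5.9e-04 from edgeR's quasi-likelihood test. Apol9b was at 54.8, 87.5, 80.8 and 69.3 CPM in the Control tumors and at 244, 405, 390 and 283 CPM in the PFSUV-IMQ tumors. These groups did not overlap either. Its log2 fold change was 2.18 (standard error 0.23), or 4.52-fold, with an adjusted p of 0.00142 in the same fit. Both genes stayed called in each of the 8 fits that left out a tumor, with log2 fold changes of 2.43 to 2.63 for Apol9a and 2.05 to 2.29 for Apol9b.

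The coding sequences of Apol9a and Apol9b are 98.5% identical over 930 bases each. Of the 50-base words in the longest coding transcript, 57.5% of those of Apol9a occur in Apol9b and 51.4% of those of Apol9b in Apol9a, so a short read from either gene could often have come from the other. How the counting treated such reads is not given in the sources used here, and the separate values of the copies are uncertain to that extent. Summed, the copies gave 114 to 179 CPM in the Control tumors and 611 to 936 CPM in the PFSUV-IMQ tumors. The log2 fold change of the sum was 2.38 (standard error 0.23), with an adjusted p of 9.6e-04 by edgeR's quasi-likelihood test. It does not depend on how reads were divided between the copies, and it was called in each of the 8 fits that left out a tumor. If the counting left out reads that match both copies, the sum and its level lack them too. Of the summed CPM of the 7 genes, 122 to 195 per Control tumor and 648 to 1034 per PFSUV-IMQ tumor, these copies took 92.0 to 96.3% in the former and 89.5 to 95.5% in the latter.

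The split of counts between the copies was compared by the share of Apol9a in Apol9a plus Apol9b. It was 52.0, 51.2, 47.0 and 56.5% in Control tumors 1, 3, 4 and 5 and 60.1, 56.3, 58.3 and 57.7% in PFSUV-IMQ tumors 1 to 4. Control tumor 5 lay within the range of the PFSUV-IMQ tumors, so the groups overlapped. The mean share was 51.7 ± 3.89% in the Control and 58.1 ± 1.58% in the PFSUV-IMQ tumors (SD, n = 4 each), a difference of 6.42 percentage points with p = 0.0571 by two-sided exact permutation of the tumors, where 0.0286 is the smallest p the design allows. The share of Apol10a in Apol10a plus Apol10b, a comparison added after the values were seen, was 2.47, 3.57, 5.65 and 2.17% in the Control tumors and 4.55, 14.8, 11.0 and 12.5% in the PFSUV-IMQ tumors. PFSUV-IMQ tumor 1 fell below Control tumor 4, and the means of 3.46 ± 1.57% and 10.7 ± 4.40% (SD, n = 4 each) gave p = 0.0571 in the same exact permutation test. Neither split differed beyond the spread between tumors at a threshold of 0.05.

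**Figure D3:**
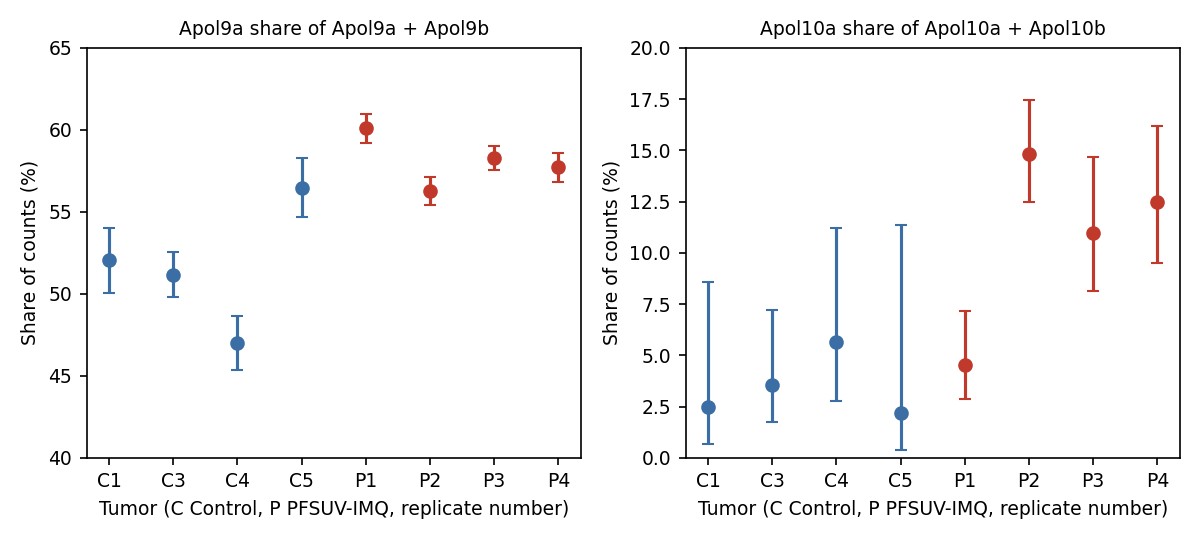
Share of counts (%) of Apol9a in Apol9a plus Apol9b (left, axis from 40%) and of Apol10a in Apol10a plus Apol10b (right, axis from 0%) in each tumor, with Control in blue and PFSUV-IMQ in red; bars are 95% Wilson intervals, which cover counting error only. Control tumor 5 on the left and PFSUV-IMQ tumor 1 on the right lie within the range of the other group.

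Apol10b and Apol10a differ more from each other, with 72.0% identity of their coding sequences. Apol10b was at 3.64, 6.64, 5.03 and 2.44 CPM in Control tumors 1, 3, 4 and 5 and at 19.7, 46.6, 17.6 and 18.2 CPM in PFSUV-IMQ tumors 1 to 4. PFSUV-IMQ tumor 2 was far above the other 3, which lay close together and still above every Control tumor. The log2 fold change was 2.51 (standard error 0.42, adjusted p = 0.0127, edgeR's quasi-likelihood test) and 2.03 (without PFSUV-IMQ tumor 2) to 2.77 with a tumor left out, and the call was lost without Control 1. Apol10a was almost absent from the Control tumors, with 2, 7, 7 and 1 counts, and had 17, 116, 39 and 47 counts in the PFSUV-IMQ tumors. In CPM it lay between 0.0543 and 0.301 in the Control and between 0.938 and 8.10 in the PFSUV-IMQ tumors, again with tumor 2 highest. The fitted value, 4.21 on the log2 scale (standard error 0.76, adjusted p = 0.0201 in the same fit), rests on 17 Control counts in all. It was 3.34 without PFSUV-IMQ tumor 2 and still called, and the call was lost without Control 1, 3 or 5. Of the 50-base words of Apol10a, 16.9% occur in transcripts of other genes, most of them in Apol10c-ps, and 6.11% of those of Apol10b do. For the summed counts of Apol10a and Apol10b the log2 fold change was 2.64 (standard error 0.44, adjusted p = 0.0124, edgeR's quasi-likelihood test) and 2.12 without PFSUV-IMQ tumor 2, and the call was lost without Control 1.

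Apol6, the member apart from the packed cluster, was at 3.69, 7.66, 6.23 and 2.82 CPM in Control tumors 1, 3, 4 and 5 and at 14.8, 52.0, 22.5 and 19.8 CPM in PFSUV-IMQ tumors 1 to 4. The groups did not overlap, and PFSUV-IMQ tumor 2 was again highest. The log2 fold change was 2.41 (standard error 0.46), or 5.32-fold, with an adjusted p of 0.0243 by edgeR's quasi-likelihood test. It ranged from 1.88 (without PFSUV-IMQ tumor 2) to 2.67 with a tumor left out, and the call was lost without Control 1, 4 or 5. Only 64 of its exon bases (1.42%) overlap another gene, the myoglobin gene Mb on the opposite strand, and 0.75% of its 50-base words are shared. Whether the counting used strand is not given in the sources used here.

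Apol8 and Apol7c were near the limit of detection. Apol8 had 6, 19, 6 and 12 counts in Control tumors 1, 3, 4 and 5 and 19, 4, 31 and 24 counts in PFSUV-IMQ tumors 1 to 4. Unlike the called members it was lowest of its group in PFSUV-IMQ tumor 2, at 0.279 CPM, and the groups overlapped through that tumor. The other 3 PFSUV-IMQ tumors, at 1.05 to 1.73 CPM, lay above every Control tumor (at most 0.668 CPM). Its log2 fold change was 1.24 (standard error 0.55) with an adjusted p of 0.381 by edgeR's quasi-likelihood test. It was 0.93 to 1.53 (the latter without PFSUV-IMQ tumor 2) with a tumor left out, and Apol8 was called in none of these 8 fits. None of its 50-base words occurs in another gene. Apol7c had 2, 9, 2 and 4 counts in the Control tumors and 5, 29, 7 and 9 in the PFSUV-IMQ tumors. Control tumor 3 equalled PFSUV-IMQ tumor 4 in counts, and 29 of the 50 PFSUV-IMQ counts came from tumor 2. With no filter on low counts its log2 fold change was 2.06 and the adjusted p 0.233. Markers of conventional dendritic cells, the cells in which Apol7c has been described, had 8 of 8 genes tested and none called, with summed CPM of 88.2 to 122 per Control tumor and 74.7 to 118 per PFSUV-IMQ tumor. Of the markers of the cross-presenting type, Xcr1 was at 12.1 ± 4.37 and 6.78 ± 2.12 CPM, Clec9a at 8.14 ± 2.64 and 8.49 ± 2.21 CPM and Batf3 at 2.77 ± 1.01 and 3.43 ± 1.26 CPM (SD, n = 4 each). Their part in the Apol7c values was not tested.

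**Figure D4:**
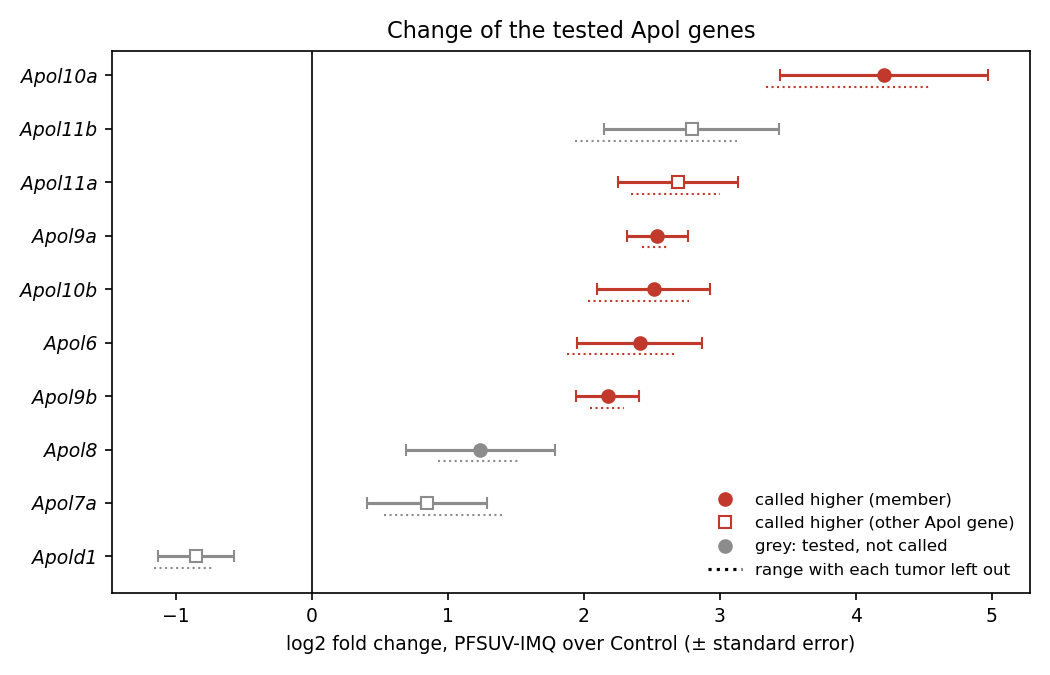
Log2 fold change of PFSUV-IMQ over Control for the 10 tested Apol genes, with standard errors as bars and dotted lines for the range when each of the 8 tumors is left out; circles are the 6 tested genes of the 7 described here, squares the rest of the family, red is called higher and grey not called. Apol9a and Apol9b have the narrowest ranges, and Apol10a has the largest change and the widest error.

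Whether members differed from each other in response was tested by the difference of their log2 CPM (prior count 2) in each tumor, over the 15 pairs of the 6 tested members. Of these pairs, 2 reached the smallest possible p of 0.0286 in the exact two-sided permutation test. For Apol6 minus Apol10a the PFSUV-IMQ mean minus the Control mean was -1.08 (standard error 0.28), and for Apol8 minus Apol9a it was -1.57 (standard error 0.58). Adjusted over the 15 pairs, the smallest p was 0.171. At least 9 pairs at the smallest possible p would have been needed for any to pass 0.05, so this adjusted test could hardly separate members, and it does not show that they responded alike. For Apol9a minus Apol9b it was 0.37 (standard error 0.12), with a raw p of 0.0571 in the same exact permutation test.

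Per kilobase of merged exons, the order of levels in the Control tumors was Apol9b (40.2 ± 7.86 CPM per kb), Apol9a (13.1 ± 2.59), Apol10b (1.91 ± 0.78), Apol6 (1.13 ± 0.50), Apol8 (0.16 ± 0.08), Apol7c (0.09 ± 0.05) and Apol10a (0.06 ± 0.04) (SD, n = 4 each). In the PFSUV-IMQ tumors it was Apol9b (182 ± 43.5 CPM per kb), Apol9a (76.4 ± 15.3), Apol10b (11.0 ± 6.05), Apol6 (6.07 ± 3.74), Apol10a (1.14 ± 1.05), Apol7c (0.39 ± 0.40) and Apol8 (0.37 ± 0.21). Apol10b and Apol6 overlapped between tumors in both groups, as did Apol8 with Apol7c. Apol7c and Apol10a overlapped in both groups too, so the order among the 3 lowest genes is not resolved. The order of Apol9b and Apol9a, and that of Apol10b and Apol6, depends on the length used. For Apol9a this is because its merged exons span 5953 bases and its longest coding transcript 1530. Per kilobase of that transcript Apol9a was at 51.1 and Apol9b at 46.5 CPM per kb in the Control tumors, and at 297 and 210 CPM per kb in the PFSUV-IMQ tumors. On this scale Apol6, at 2.20 and 11.8 CPM per kb in Control and PFSUV-IMQ tumors, lay above Apol10b, at 1.91 and 11.0. This length was chosen after the values were seen.

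The other 8 family genes were read from the same fit. Apol11a and Apol11b, close relatives of the Apol10 genes with 93.5% identity to each other, had the same stretch around their ISRE core.
Apol11a: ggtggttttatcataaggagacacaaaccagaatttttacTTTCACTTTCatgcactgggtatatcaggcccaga
The stretch lies at chr15:77508179-77508253 (plus strand) for Apol11a and at chr15:77643302-77643376 (minus strand) for Apol11b. Apol11a had 5, 13, 4 and 6 counts in the Control tumors and 24, 46, 35 and 26 in the PFSUV-IMQ tumors, and it was called higher (log2 fold change 2.70, standard error 0.44, adjusted p = 0.0116, edgeR's quasi-likelihood test). Like Apol10a it passed the count filter only in the PFSUV-IMQ tumors, and its call was lost without Control 1. Apol11b had 16, 15, 8 and 3 counts in the Control tumors and 30, 106, 33 and 32 in the PFSUV-IMQ tumors. Its groups did not overlap, but it was not called (log2 fold change 2.80, standard error 0.64, adjusted p = 0.0557 in the same fit). The log2 fold change was 1.93 without PFSUV-IMQ tumor 2, which held 106 of its 201 PFSUV-IMQ counts. The pseudogene Apol10c-ps had 0, 2, 1 and 0 counts in the Control tumors and 9, 53, 7 and 5 in the PFSUV-IMQ tumors, too few to be tested.

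Apol7a, at 9.95, 18.8, 38.5 and 10.9 CPM in Control tumors 1, 3, 4 and 5 and 25.9, 55.5, 32.0 and 28.0 CPM in PFSUV-IMQ tumors 1 to 4, was not called (log2 fold change 0.85, standard error 0.44, adjusted p = 0.485, edgeR's quasi-likelihood test). Its highest values in each group were in Control tumor 4 and PFSUV-IMQ tumor 2, the tumors with the highest hepatocyte marker sums. The part of those cells in the value was not tested. Apol7b and Apol7e, with 98.9% coding identity, and Apol7d, annotated as an antisense gene on chromosome 1, had at most 24 counts in any tumor and were not tested. Apold1, described as an early response gene of endothelial cells and located on chromosome 6, was the only tested family gene with a negative log2 fold change. It was at 9.12, 8.99, 7.65 and 8.69 CPM in the Control tumors and 7.56, 3.28, 4.41 and 3.86 CPM in the PFSUV-IMQ tumors. Every PFSUV-IMQ tumor lay below every Control tumor, as in 3.28% of tested genes, yet it was not called (log2 fold change -0.85, standard error 0.28, adjusted p = 0.200). Without PFSUV-IMQ tumor 1 it was called lower, with a log2 fold change of -1.16 and an adjusted p of 0.0330. In all, 10 of the 15 family genes were tested and 6 were called higher, against 2.26% of all tested genes. Of the 6, Apol10a and Apol11a passed the count filter only in the PFSUV-IMQ tumors, so their inclusion is not independent of their difference.

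Genes next to the cluster were not called. On the Apol6 side the nearest tested genes were Rpl8, Zfp647 and 1110038F14Rik, and on the Apol8 side Myh9, Gm22107 and Txn2. Myh9, a nonmuscle myosin heavy chain that begins 3.58 kb past the end of Apol8, was at 1068 ± 363 CPM in the Control and 1070 ± 405 CPM in the PFSUV-IMQ tumors (SD, n = 4 each), and its log2 fold change was 0.00. Rbfox2, a splicing factor gene between Apol6 and the packed cluster, differed by 0.41 on the log2 scale (standard error 0.18, adjusted p = 0.367, edgeR's quasi-likelihood test). The largest value with separate groups among these neighbours was that of 1110038F14Rik, which was at 22.6 ± 6.64 and 45.7 ± 12.7 CPM (SD, n = 4 each; log2 fold change 1.02, adjusted p = 0.0855 in the same fit).

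The pathway from TLR7 to interferon signaling was read from fixed lists in the same fit. Of 20 interferon ligand genes, only Ifng had enough counts to be tested, and it was not called (log2 fold change 0.62, adjusted p = 0.629, edgeR's quasi-likelihood test). Ifnb1, the gene of interferon beta, had 2, 4, 0 and 2 counts in Control tumors 1, 3, 4 and 5 and 4, 7, 3 and 3 in PFSUV-IMQ tumors 1 to 4. These counts are at or near the limit of detection, and 8 ligand genes had no count in any tumor. Downstream of the receptors, Stat2 (log2 fold change 2.34, adjusted p = 4.99e-04, edgeR's quasi-likelihood test) and Irf9 (1.26, adjusted p = 0.00870), whose proteins bind the ISRE together, were called higher, also in each of the 8 fits that left out a tumor. The receptor genes Ifnar1 and Ifnar2 had log2 fold changes of -0.14 and 0.05 and were not called.

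Of 10 genes of the TLR7 pathway, 2 were called higher and 8 not, with a median log2 fold change of 0.29. Irf7, a factor that drives interferon alpha genes and is itself induced by interferon, had a log2 fold change of 2.94 (adjusted p = 0.00121, edgeR's quasi-likelihood test). Irf7 stayed called with any tumor left out. Myd88, the adaptor of TLR7, had one of 1.24 (adjusted p = 0.0287) and lost its call when any 1 of the 4 Control tumors or PFSUV-IMQ tumor 2 was left out, and Tlr7 itself one of 0.75 (adjusted p = 0.492). Of 14 plasma apolipoprotein genes, 12 were tested and none was called, with a median log2 fold change of 0.20. The largest value in size was that of Apoa4 at -0.76 (adjusted p = 0.612), and Apoe had 0.09 (adjusted p = 0.973).

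Among 10 lists of cell type markers, only Bst2 was called higher and only Vsig4 lower. Vsig4, a receptor of resident macrophages, was at 17.3 ± 7.61 CPM in the Control and 5.63 ± 2.10 CPM in the PFSUV-IMQ tumors (SD, n = 4 each; log2 fold change -1.62, adjusted p = 0.0453, edgeR's quasi-likelihood test). Its call held only with all tumors or without PFSUV-IMQ tumor 2. The 8 macrophage markers summed to 583 to 880 CPM in the Control and 410 to 784 CPM in the PFSUV-IMQ tumors, which overlap. Bst2, a plasmacytoid dendritic cell marker that is also an interferon-induced antiviral gene, had a log2 fold change of 1.90 (adjusted p = 0.00381), and with it the sum of its list was higher in every PFSUV-IMQ tumor (509 to 860 against 255 to 383 CPM). The 5 other markers of these cells were not called, with log2 fold changes of 1.25 for Ly6d, 0.57 for Tcf4, 0.56 for Ccr9, 0.03 for Irf8 and -1.11 for Siglech. The sums of the 8 other lists overlapped between the groups. Whether the source cells of the Apol transcripts changed in number was not tested.

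As a description over the 8 tumors, the log2 CPM of the 5 called members had Pearson correlations of 0.91 to 0.99 with each other, whereas those of Apol8 with them were 0.27 to 0.58. The 8 points fall into 2 groups and share libraries, so these values largely restate the group difference. The 3 genes outside the family most correlated with Apol9a were Ifi35, Parp10 and 4930599N23Rik, and with Apol9b Gm44075, Gm19684 and Xaf1. For Apol6 they were A330040F15Rik, Gbp11 and Tmem169, for Apol10a Trim30a, A330040F15Rik and Mir155hg, and for Apol10b Gm7609, Samhd1 and Gbp5. All these had r of 0.989 to 0.995, and all but Mir155hg were called higher. The genes most like Apol8, Riok1, Nmnat2 and Gm7993, had r of 0.969 to 0.983, and none of them was called.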

How the data were processed

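The authors deposited whole-number counts of reads per gene for 8 tumors, which were the input of every test. Their second deposited table holds a signal, those counts divided by 1 size factor per tumor, and served only for the symbols. The study's methods name TopHat and HTSeq, whereas the submitters' processing notes name Trimmomatic 0.38, HISAT2 2.1.0 and featureCounts 2.0.0; the handling of multiply mapped reads and of strand is not given in the sources used here. All 55536 identifiers matched GENCODE M21 (GRCm38).

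The fit used edgeR 4.0.16 in R 4.3.3 with TMM factors, filterByExpr and the quasi-likelihood test on 2 groups, with Benjamini-Hochberg adjustment over all tested genes. DESeq2 1.42.0, other size factors and filters, and each tumor left out in turn were alternatives. The fit was tested on simulated data. Named genes were the 7 members, the other Apol genes, the 3 nearest tested genes on each side (those between members were also read), the 3 most correlated genes per tested member and up to 4 genes of each list, 1 of which is not reported here, nor is the count of its list. Members and lists were chosen with earlier results of these data known. Promoters came from RefSeq (GRCm38.p6). No batch or date is given. No tumors of a group agreed within sampling noise (chi-square of 29.5 to 287 per degree of freedom). Same-numbered tumors did not deviate together, with correlations of 0.29, -0.27 and -0.32 for numbers 1, 3 and 4, so no replicate term was used.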

Additional observations from a re-analysis of the deposited data

Results flagged for a closer look

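Within a group of 4 tumors, 10 of 80 gene-by-group sets tested had 1 tumor farther from the others than Dixon's 95% limit allows. Chance gives about 1 in 20 for independent sets, but these share the same tumors, so the 10 cannot be set against that rate. In 9 of the 10 sets PFSUV-IMQ tumor 2 was highest. These were Apol10b at 46.6 CPM, the sum of Apol10a and Apol10b at 54.7 CPM, Apol7c at 2.03 CPM, Apol11b at 7.41 CPM, Apol10c-ps at 3.70 CPM, Apol7e at 1.19 CPM, Ifnb1 at 0.489 CPM, Myd88 at 114 CPM and Irf7 at 848 CPM. This tumor was highest of its group for 320 of the 362 genes called higher. Its marker sums were the highest of its group for every listed cell type except conventional dendritic cells and fibroblasts and stellate cells. The part of such cells in these values was not tested. Apol9a, Apol9b, Apol6 and Apol10a had no such tumor in either group. The remaining 1 was Txn2, highest in PFSUV-IMQ tumor 3 at 127.1 CPM.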

How the results depend on the processing

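With no filter on low counts, with upper-quartile scaling, with the size factors or the Wald test of DESeq2 and with no fold limit, 5 members were called, and with at least 10 counts in every tumor 4 of the 4 tested. Leaving out a tumor gave 2 to 5 called members (2 without Control 1), 197 to 375 genes called higher and 8 to 38 lower, against 362 and 32. The log2 fold change of the summed Apol10 copies was then 2.12 to 2.90, with the call lost without Control 1, that of the summed Apol9 copies 2.26 to 2.48, and the share differences were 4.86 to 8.02 points for Apol9a and 5.87 to 9.29 for Apol10a. The Wald test called 572 genes higher and 114 lower, and no filter 63 lower. Among the other 8 family genes, 1 was called (Apol11a), against 3 with no filter (also Apol11b and Apol10c-ps), 2 with the Wald test (also Apol11b), 0 with at least 10 counts in every tumor, where Apol11a was not tested, and 0 to 2 with a tumor left out (0 without Control 1, and 2 without PFSUV-IMQ tumor 1, where Apold1 was called lower). With a tumor left out, 1 to 2 TLR7 pathway genes and 1 to 2 cell type markers were called, against 2 of each in the main fit. Without Control 1, 2 markers were called although Vsig4 was not, so 1 of them was neither Bst2 nor Vsig4. The Wald test called 5 markers. The cause of these shifts was not tested. With the length of the longest coding transcript, added after the data were seen, the ratio of Apol9a to Apol9b levels went from 0.33 to 1.10 in Control and from 0.42 to 1.42 in PFSUV-IMQ tumors, and that of Apol6 to Apol10b from 0.59 to 1.15 and from 0.55 to 1.07. Pairing of the tumors by number is not stated in the sources used here, and same-numbered tumors did not deviate together. With the replicate number as a block, 416 genes were higher and 267 lower, and 1 TLR7 pathway gene and 5 members were called. The log2 fold changes were then 1.73 for Apol6, 3.13 for Apol10a and 1.89 for Apol10b. In that fit PFSUV-IMQ tumor 2 and Control tumor 5 had no same-numbered tumor in the other group. They therefore did not inform these values. No log2 fold change of a tested Apol gene changed sign in any fit. The order of Apol9a and Apol9b, and that of Apol6 and Apol10b, did reverse with the length used. Low counts limit Apol7c, Apol8 and Apol10a.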
